A study of Homo sapiens with 6 samples.

Results

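GPR50, SGSM3, CGA, KTI12 and BEST3 are 5 protein-coding genes of 60564 genes in the count table, 18797 of which had enough reads to be tested. They were picked as the protein-coding genes, taken to be single-locus, whose levels separated overexpressing from wild-type cells most clearly after SFXN2 itself. In the order named they ranked 4, 7, 6, 12 and 11 by edgeR p among all tested genes, so some genes outside this group ranked higher. The values that chose them are the ones described here, so they are a description, and counts of calls among the 5 stand only beside those of all genes. HEK293, an established human embryonic kidney cell line, was sequenced in 2 states, wild type (titled NC_HA) and stable overexpression of SFXN2 (titled OE_HA), with 3 libraries each. SFXN2 encodes sideroflexin 2, a mitochondrial carrier protein, and the series title ties it to Parkin and to apoptosis. What NC and HA stand for, and whether the overexpressing cells were 1 clone or carried a matched empty vector, is something the sources used here do not give. Nothing in the labels says that replicates were separate cultures, so the spread between libraries may be technical.

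The libraries matched their labels. Total counts ranged from 32121527 to 41217867 in wild type and from 40043248 to 59963713 with overexpression. Overexpression replicates 2 and 3 were the deepest and had the most genes with a count (28985 and 29154, against 24466 to 26127 elsewhere). SFXN2 had 1155, 1144 and 1580 reads in wild type and 59139, 104997 and 108224 with overexpression. The 7 markers of HEK293 and embryonic kidney cells were all counted, with a summed level of 246 to 298 CPM (counts per library of 1e+06 reads) in wild type and 239 to 266 with overexpression. Fibroblast markers (6 genes) summed to 15.1 to 21.3 and 12.5 to 21.6 CPM, and blood and immune markers (7 genes) to 0.826 to 1.11 and 0.747 to 2.36 CPM. Most of the highest immune sum came from 1 gene, ITGAM. It stood at 0.127, 0.316 and 0.198 CPM in wild type and 0, 1.42 and 1.47 CPM with overexpression (replicates 1, 2 and 3), with overlapping groups. CPM values here follow TMM scaling, which corrects for library composition. Since these are bulk samples, a lower level cannot be split into fewer expressing cells and less RNA per cell.

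The 5 genes do unrelated jobs. GPR50 is a G protein-coupled receptor that resembles the melatonin receptors without binding melatonin, and it pairs with the receptor MTNR1A. CGA is the alpha chain that chorionic gonadotropin, luteinizing hormone, follicle-stimulating hormone and thyrotropin have in common, and the placenta and pituitary are its usual sources. BEST3 belongs to the bestrophins, a family of chloride channels opened by calcium. SGSM3 carries a TBC domain and stimulates GTP hydrolysis by RAB5, a small GTPase of early endosomes. KTI12 is known from yeast, where it works with the Elongator complex that modifies the wobble uridine of transfer RNAs.

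With overexpression, GPR50 and SGSM3 were lower and CGA, KTI12 and BEST3 were higher, and for all 5 the libraries of one group lay entirely on one side of the other group. Such a separation was found in 9.16% of all tested genes (4.25% lower and 4.91% higher with overexpression), and the 5 were chosen for it. The choice also bears on every count of calls among the 5 below, by any tool, so nothing is read from these counts. At an adjusted p of 0.05, edgeR (quasi-likelihood, Benjamini-Hochberg) called 0 of the 5 genes, where 0.0106% of tested genes (2 genes) were called. DESeq2 called GPR50, SGSM3 and CGA among 12 genes (0.0353% of those it tested, with 0.0236% higher and 0.0118% lower), and limma-voom called none of the 5 among 3 genes (0.016%). With the replicate number as a block edgeR called 1 gene (0.00532%), none of them a member.

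**Figure D1:**
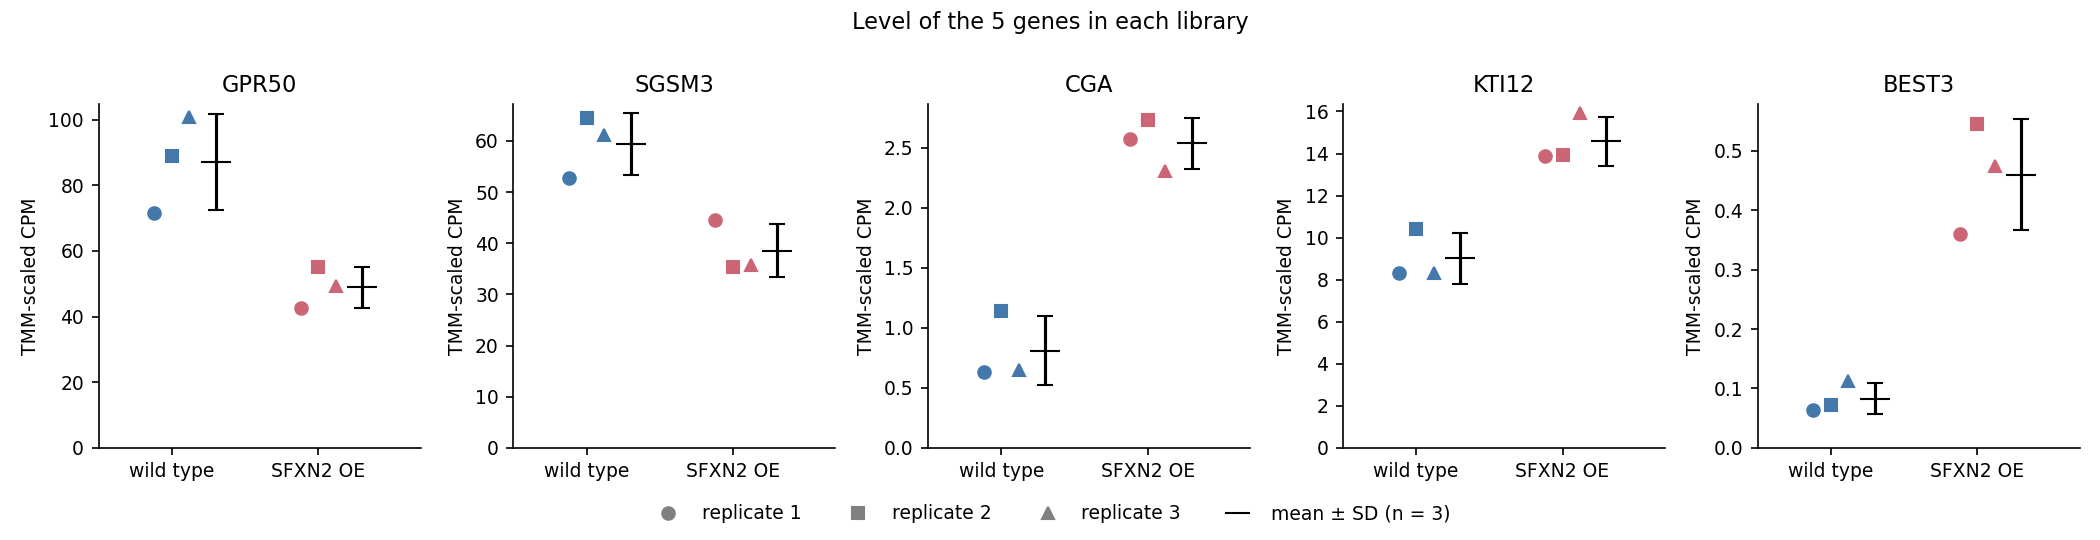
Level of each of the 5 genes, as TMM-scaled CPM on a linear axis from 0, in 3 wild-type and 3 overexpression libraries, with symbols for the replicate number and bars for mean ± SD (n = 3). GPR50 and SGSM3 are lower and CGA, KTI12 and BEST3 higher in all overexpression libraries.

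GPR50, the orphan receptor, was the most abundant of the 5 and its mean level was 0.562 times that of wild type. The gene (ENSG00000102195) lies on chromosome X from 151176653 to 151181465 in GRCh38, with 2 exons. It had 2264, 3658 and 3562 reads in wild-type replicates 1, 2 and 3, and 1652, 3026 and 3011 reads with overexpression. After scaling these were 71.7, 88.8 and 101 CPM in wild type and 42.5, 55.0 and 49.3 CPM with overexpression. The lowest wild-type library was thus 1.30 times the highest overexpression library, and replicate 1 was the lowest of each group. The means were 87.1 ± 14.6 and 48.9 ± 6.25 CPM (SD, n = 3 each), a log2 fold change of -0.83 (SE 0.14). The log2 ratio within the numbered pairs was -0.75, -0.69 and -1.03 for replicates 1, 2 and 3, though no label states that the numbers pair across groups. Per kilobase of exon, GPR50 stood at 44.6 ± 7.48 CPM in wild type (SD, n = 3), above 94.9% of tested protein-coding genes, and at 25.1 ± 3.20 CPM with overexpression (SD, n = 3), above 89.4%.

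The shift in GPR50 was not a tight one. Its pooled within-group SD on the log2 scale was 0.22, larger than in 87.4% of the 500 tested genes nearest to it in level, whose median was 0.13. SGSM3 was also more variable than most genes of its level, with an SD of 0.17 against a median of 0.14. The spread was below the median for CGA (0.33 against 0.41), KTI12 (0.15 against 0.21) and BEST3 (0.28 against 0.78). These SDs were taken after adding a prior count of 2, which narrows the spread of weakly counted genes such as BEST3. The members were chosen for a clear separation of the groups, and that choice favours a small spread. Nothing is therefore read from the low values of CGA, KTI12 and BEST3. A gene counted as weakly as BEST3 could also enter the test only if its libraries differed, so the median of 0.78 is no neutral reference.

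**Figure D2:**
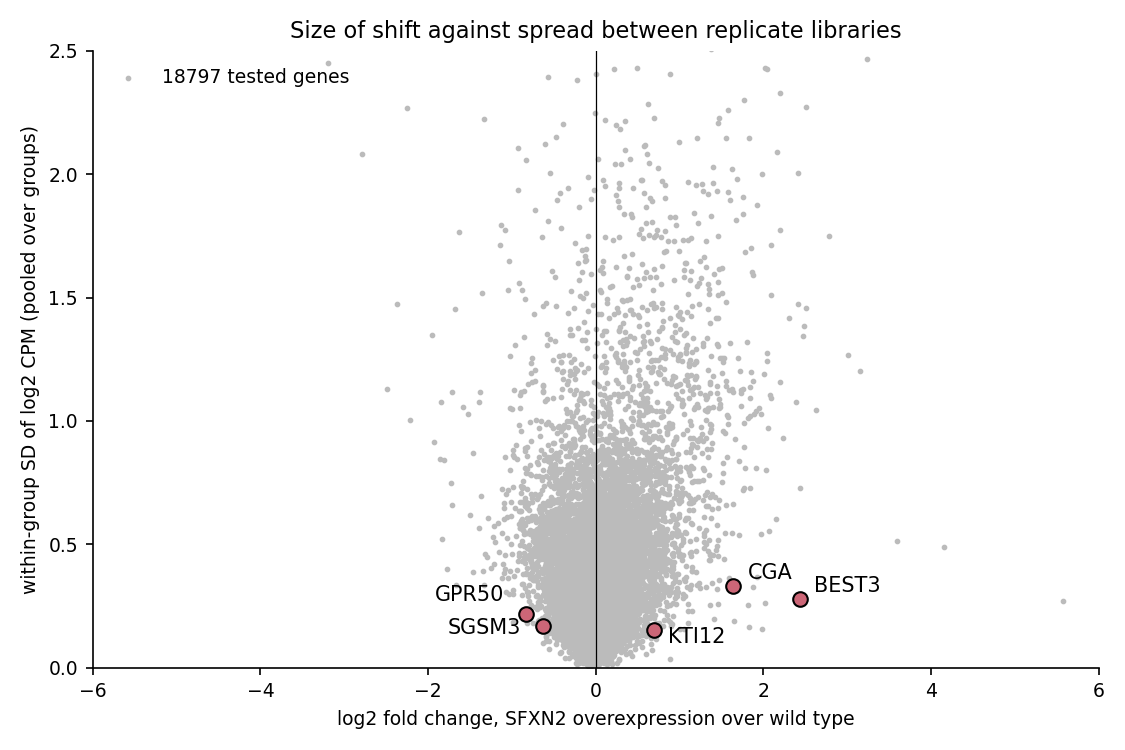
Log2 fold change (horizontal) against the within-group SD of log2 CPM pooled over both groups (vertical) for 18797 tested genes in grey and the 5 genes in red; 37 genes lie outside the axes. CGA and BEST3 sit far right at an SD of 0.33 and 0.28, and GPR50 lies left at 0.22.

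Genes around GPR50 and genes tied to its function did not pass the test, where 0.0106% of all tested genes passed in edgeR. Its antisense neighbour GPR50-AS1 shares 81 exonic bases with it and had 4 reads in wild-type replicate 1 and none in the other libraries. Since the kit does not mark strand, reads of the pair cannot be told apart over those bases. The nearest coding genes, HMGB3 and VMA21, had log2 fold changes of -0.09 and -0.03 (edgeR adjusted p = 0.97 and 0.98). Of 8 genes for melatonin receptors, melatonin synthesis and proteins reported to bind GPR50, 5 were tested and 0 passed in edgeR, DESeq2 or limma-voom. None of them had an unadjusted edgeR p below 0.05 (0 of 5), where 2.38% of all tested genes had one in each direction. Their median log2 fold change was 0.00035, beside 0.0060 for all tested genes. MTNR1A, the melatonin receptor that GPR50 pairs with, averaged 0.781 ± 0.369 CPM in wild type and 0.705 ± 0.153 CPM with overexpression (SD, n = 3 each), and MTNR1B had no read. TGFBR1, a TGF-beta receptor reported to bind GPR50, stood at 58.8 ± 8.03 and 64.4 ± 1.41 CPM, and the acetyltransferase gene KAT5 at 62.5 ± 4.51 and 57.7 ± 5.36 CPM (SD, n = 3 each).

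CGA, the hormone alpha chain, was a weakly expressed gene whose mean level with overexpression was 3.14 times that of wild type. The gene (ENSG00000135346) lies on chromosome 6 from 87085498 to 87095406, and no other annotated gene overlaps it. It had 20, 47 and 23 reads in wild-type replicates 1, 2 and 3, and 100, 150 and 141 with overexpression. On the CPM scale these were 0.633, 1.14 and 0.650 against 2.57, 2.73 and 2.31. Wild-type replicate 2 was the highest of its group, and the lowest overexpression library was still 2.02 times as high. The means were 0.808 ± 0.289 and 2.54 ± 0.213 CPM (SD, n = 3 each), and the log2 fold change was 1.64 (SE 0.32). Summed over libraries, 391 reads against 90 give a scaled ratio of 3.03, with an exact 95% interval of 2.41 to 3.86 that covers counting error only. Without wild-type replicate 2 the log2 fold change was 1.98. Per kilobase of exon, CGA averaged 0.354 ± 0.126 CPM in wild type and 1.11 ± 0.0932 CPM with overexpression (SD, n = 3 each), above 12.1% and 22.0% of tested protein-coding genes.

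The promoters of CGA and GPR50 are shown because these are the members with the most reads in each direction among those that share no exon with another coding gene. Each line gives the 250 bases before the RefSeq start in GRCh38.p14, 5′ to 3′ on the strand of the gene. Capitals mark 4 motifs on either strand, chosen after the sequences were seen. They are the cyclic AMP response element (CRE), spelled TGACGTCA, the promoter element spelled TATAAA, the box spelled CCAAT that NF-Y binds, and the core of sites for ETS factors, spelled CCGGAA.
CGA, chr6:87095107-87095356, minus strand: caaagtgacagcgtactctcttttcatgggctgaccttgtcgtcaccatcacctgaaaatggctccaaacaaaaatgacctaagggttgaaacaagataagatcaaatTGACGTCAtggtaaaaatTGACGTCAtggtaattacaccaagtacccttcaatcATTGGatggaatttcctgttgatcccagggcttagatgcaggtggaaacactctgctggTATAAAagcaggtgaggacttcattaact
GPR50, chrX:151176334-151176583, plus strand: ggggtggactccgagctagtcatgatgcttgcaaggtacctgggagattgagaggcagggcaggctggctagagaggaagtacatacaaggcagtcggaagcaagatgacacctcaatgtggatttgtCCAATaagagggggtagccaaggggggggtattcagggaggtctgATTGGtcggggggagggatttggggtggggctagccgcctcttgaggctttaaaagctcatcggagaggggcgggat

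The CGA promoter held the CRE letters at both -142 to -135 and -124 to -117 from the start, a TATAAA at -29 to -24 and a reverse CCAAT at -88 to -84, none of them overlapping. Of 35116 promoters of this length, 1.65% held TGACGTCA at least once and 0.0541% at least 2 times, 10.7% held TATAAA and 32.0% held CCAAT. The GPR50 promoter held CCAAT at -122 to -118 and, in reverse, at -77 to -73, and 9.53% of promoters held CCAAT at least 2 times. The KTI12 promoter held CCGGAA in reverse at -26 to -21, as 14.5% of promoters did on either strand. These matches describe letters and say nothing of which factors bind.

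Transcription factors that act at the CGA promoter in placenta or pituitary were mostly expressed in these cells. None passed, where 0.0106% of all tested genes passed in edgeR. Of 12 such genes 11 were tested, with 0 called in edgeR, DESeq2 or limma-voom and 0 at an unadjusted edgeR p below 0.05. Their median log2 fold change was -0.10, and it was -0.021 with the replicate block. CREB1, which binds CRE sites, averaged 48.1 ± 4.26 CPM in wild type and 54.2 ± 2.86 CPM with overexpression (SD, n = 3 each). TFAP2A, an AP-2 factor, stood at 88.0 ± 4.89 and 76.0 ± 15.3 CPM, and GATA2, a zinc-finger factor, at 19.7 ± 0.362 and 17.6 ± 0.805 CPM (SD, n = 3 each). The edgeR adjusted p was 0.93 for all 3.

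The partners of CGA were barely counted. None of the 14 other subunit and receptor genes had enough reads to be tested. The beta chains of luteinizing hormone, follicle-stimulating hormone and thyrotropin (LHB, FSHB and TSHB) had no read in any library, which allows a level of up to 0.0114 CPM over the 6 libraries together (3 reads, counting error only). The 6 chorionic gonadotropin beta genes had between 5 and 60 reads over all libraries, most of them on CGB7 (0.158 ± 0.0590 and 0.272 ± 0.174 CPM, SD, n = 3 each). These beta genes are near-identical copies, so the split of reads among them is uncertain. The other alpha chain, GPHA2, had 4 reads in all. Of 7 pituitary markers, 4 had no read, among them PRL and POU1F1, and the list summed to 0.146 to 0.396 CPM in wild type and 0.182 to 0.232 CPM with overexpression. Of 8 trophoblast markers, CSH1 and HSD3B1 had no read, and the list summed to 0.389 to 0.509 CPM in wild type and 0.746 to 0.916 CPM with overexpression. The trophoblast sum was therefore higher in every overexpression library, and its part in the CGA result was not tested. This sum rests on few reads, since GCM1 had 116 over all libraries and no other gene of the list had more than the 22 of ERVW-1. A separation upward was found in 4.91% of all tested genes. GCM1, a placental transcription factor and the only tested marker of that list, stood at 0.324 ± 0.0134 CPM in wild type and 0.540 ± 0.199 CPM with overexpression (SD, n = 3 each), with overlapping groups and an edgeR adjusted p of 0.93. The coding gene to the right of CGA, ZNF292, had a log2 fold change of 0.15 (edgeR adjusted p = 0.93), and HTR1E to its left had no read.

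BEST3, the bestrophin, had the largest fold change of the 5 and by far the fewest reads. The gene (ENSG00000127325) lies on chromosome 12 from 69643360 to 69699476. Wild-type replicates 1, 2 and 3 had 2, 3 and 4 reads, and overexpression replicates had 14, 30 and 29. These were 0.0633, 0.0729 and 0.113 CPM against 0.360, 0.546 and 0.474 CPM. The groups did not overlap, and the lowest overexpression library was 3.19 times the highest wild-type library. The means were 0.0831 ± 0.0264 and 0.460 ± 0.0934 CPM (SD, n = 3 each), and the log2 fold change was 2.44 (SE 0.52). Summed over libraries, 73 reads against 9 give a scaled ratio of 5.66, with an exact 95% interval of 2.82 to 12.9 for counting error alone. BEST3 passed the filter of about 10 reads in 3 libraries through the overexpression group only, since 0 of 3 wild-type libraries reached 10 reads, so a gene at this level could enter only if it differed. Under a filter of 1 CPM in 3 libraries it was not tested. Per kilobase of exon it stood at 0.0121 ± 0.00385 CPM and 0.0670 ± 0.0136 CPM (SD, n = 3 each), above 0.0417% and 1.61% of tested protein-coding genes. BEST3 was highest in overexpression replicates 2 and 3, the libraries with the most genes counted, and the part of this in the result was not tested.

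Other chloride and anion channels did not pass, where 0.0106% of all tested genes passed in edgeR. Of 21 such genes 17 were tested, with 0 called in edgeR, DESeq2 or limma-voom, 0 at an unadjusted edgeR p below 0.05 and a median log2 fold change of -0.054. BEST1, the bestrophin known from the retinal pigment epithelium, stood at 2.37, 14.7 and 9.64 CPM in wild type and at 1.18, 48.3 and 30.6 CPM with overexpression. Its groups overlapped, since overexpression replicate 1 was the lowest of the 6 libraries (edgeR adjusted p = 0.94). BEST2 and BEST4 were too weakly counted to test, at 0.0829 ± 0.0228 and 0.162 ± 0.0933 CPM for BEST2 and 0.123 ± 0.107 and 0.356 ± 0.174 CPM for BEST4 (SD, n = 3 each). The smallest unadjusted p values of the list belonged to CLCN2, a chloride channel of the ClC family (log2 fold change -0.40, edgeR adjusted p = 0.93), and CLIC1, an intracellular chloride channel protein (0.16, edgeR adjusted p = 0.93). RAB3IP, the nearest coding gene to the right, had a log2 fold change of 0.05 (edgeR adjusted p = 0.98), and LRRC10 to the left had no read.

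**Figure D3:**
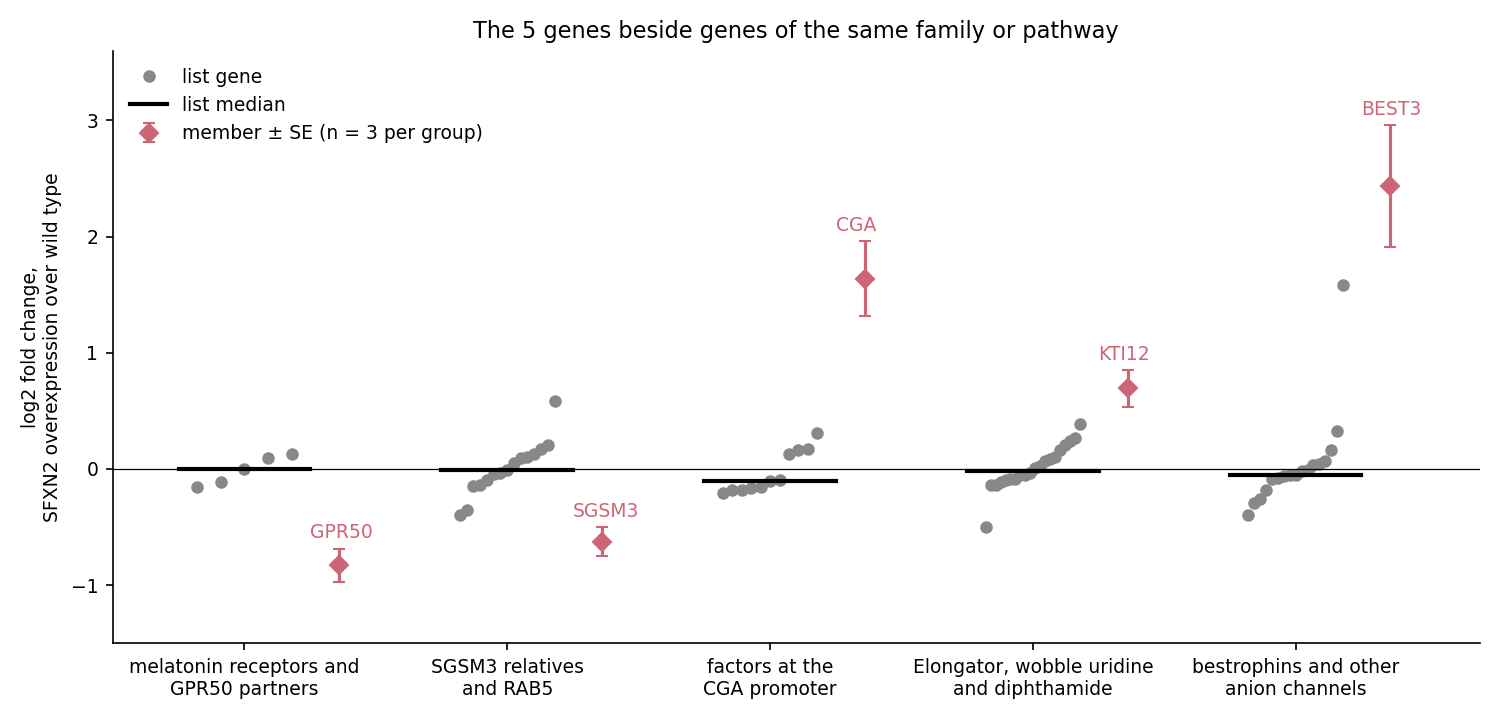
Log2 fold changes of tested genes in 5 lists (grey points, with the list median as a black bar) beside the member each list belongs to (red diamonds, ± SE). All list medians lie between -0.10 and 0.00035, while the 5 members lie between -0.83 and 2.44; the members were chosen on these values.

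SGSM3, the RAB5 regulator, had a mean level 0.648 times that of wild type when counted on its own gene model. The gene (ENSG00000100359) lies on chromosome 22 from 40370591 to 40410289. It had 1664, 2658 and 2160 reads in wild-type replicates 1, 2 and 3, and 1729, 1949 and 2179 with overexpression. On the CPM scale these were 52.7, 64.6 and 61.1 against 44.5, 35.4 and 35.7. Replicate 1 lay closest between the groups, with the lowest wild-type library only 1.18 times the highest overexpression library. The means were 59.4 ± 6.11 and 38.5 ± 5.18 CPM (SD, n = 3 each), and the log2 fold change was -0.63 (SE 0.12). Within the numbered pairs the log2 ratio was -0.24, -0.87 and -0.78. Per kilobase of exon, SGSM3 averaged 12.5 ± 1.28 CPM in wild type and 8.08 ± 1.09 CPM with overexpression (SD, n = 3 each), above 75.7% and 63.6% of tested protein-coding genes.

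SGSM3 is not a single-gene locus in the annotation. AL022238.4 (ENSG00000284431, chromosome 22, 40346529 to 40410054) is annotated as a read-through transcript from the upstream gene ADSL into SGSM3 on the same strand. It covers 62.4% of the exonic bases of SGSM3 (2977 of 4770), and a read from those bases can be counted on either model. AL022238.4 had 112, 928 and 649 reads in wild type and 414, 1740 and 2051 with overexpression. Its mean was 14.8 ± 9.98 CPM in wild type and 25.3 ± 12.7 CPM with overexpression (SD, n = 3 each), with overlapping groups (log2 fold change 0.77, edgeR adjusted p = 0.95). That fold change was 0.30 without wild-type replicate 1, 1.20 without wild-type replicate 2 and 0.50 without overexpression replicate 3. Of the reads on both models, SGSM3 received 93.7%, 74.1% and 76.9% in wild type and 80.7%, 52.8% and 51.5% with overexpression.

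Adding both models, a step chosen after the values were seen, brought the groups of SGSM3 together. The summed level was 56.2, 87.1 and 79.4 CPM in wild type and 55.2, 67.1 and 69.2 CPM with overexpression, and the groups overlapped. The means were 74.2 ± 16.1 and 63.8 ± 7.56 CPM (SD, n = 3 each), and the log2 fold change was -0.22 (SE 0.16) in place of -0.63. Within the numbered pairs, which no label states to be pairs, the sum was lower with overexpression each time, by log2 ratios of -0.03, -0.38 and -0.20. The sources used here do not give the authors' counting rule for shared bases. AL022238.4 also shares 29.5% of its exonic bases with ADSL, so the sum is not a pure SGSM3 level. ADSL itself, an enzyme of purine synthesis, averaged 135 ± 14.9 CPM in wild type and 114 ± 10.6 CPM with overexpression (SD, n = 3 each), with an edgeR adjusted p of 0.93. MRTFA, on the opposite strand, shares 9 exonic bases with SGSM3 and had a log2 fold change of -0.06 (edgeR adjusted p = 0.97).

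KTI12, the Elongator-linked gene, had a mean level 1.62 times that of wild type on its own model. The gene (ENSG00000198841) has 1 exon and lies on chromosome 1 from 52032103 to 52033816. It had 263, 428 and 294 reads in wild-type replicates 1, 2 and 3, and 540, 765 and 974 with overexpression. On the CPM scale these were 8.32, 10.4 and 8.31 against 13.9, 13.9 and 15.9. No library crossed over, and the lowest overexpression library was 1.34 times the highest wild-type library, replicate 2. The means were 9.01 ± 1.20 and 14.6 ± 1.17 CPM (SD, n = 3 each), with a log2 fold change of 0.69 (SE 0.16). Within the numbered pairs the log2 ratio was 0.74, 0.42 and 0.94. Per kilobase of exon, KTI12 averaged 5.26 ± 0.700 CPM in wild type and 8.51 ± 0.683 CPM with overexpression (SD, n = 3 each), above 50.9% and 65.1% of tested protein-coding genes.

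KTI12 lies inside the span of TXNDC12, which encodes a thioredoxin-domain protein of the endoplasmic reticulum, and 65.9% of its exonic bases also belong to other coding models of the same strand. ENSG00000285839 (chromosome 1, 52020153 to 52033350) is annotated as a read-through transcript that joins KTI12 and TXNDC12, and it shares 663 of the 1714 exonic bases of KTI12. It had 239, 106 and 243 reads in wild type and 125, 0 and 29 with overexpression. On the CPM scale it stood at 7.57, 2.57 and 6.87 against 3.22, 0 and 0.474, with overlapping groups (log2 fold change -2.25, edgeR adjusted p = 0.93). That fold change was -4.53 without overexpression replicate 1 and -4.55 with limma-voom. The libraries with the most reads per depth on this model, wild-type replicates 1 and 3, had the lowest KTI12 levels. Overexpression replicate 1, however, had more of this model than wild-type replicate 2 and also more KTI12 (13.9 against 10.4 CPM). A link between these levels was not tested. KTI12 received 52.4%, 80.1% and 54.7% of the reads on both models in wild type and 81.2%, all and 97.1% with overexpression.

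Summed over both models, the KTI12 level overlapped between the groups. It was 15.9, 13.0 and 15.2 CPM in wild type and 17.1, 13.9 and 16.4 CPM with overexpression, with means of 14.7 ± 1.52 and 15.8 ± 1.69 CPM (SD, n = 3 each). The log2 fold change was 0.11 (SE 0.15) in place of 0.69. Within the numbered pairs the sum was higher with overexpression each time, by log2 ratios of 0.11, 0.10 and 0.11. No label states a pairing and the groups overlapped, so nothing is read from the closeness of these ratios. This sum was likewise chosen after the values were seen, and 69.9% of the exonic bases of ENSG00000285839 are shared with TXNDC12, so it too holds reads of another gene. The sum also leaves out reads counted on TXNDC12, which itself shares 532 exonic bases (31.0%) of KTI12. TXNDC12 averaged 80.2 ± 6.03 CPM in wild type and 85.5 ± 6.67 CPM with overexpression (SD, n = 3 each), with an edgeR adjusted p of 0.95. The antisense model AL445685.1, which covers 24.9% of KTI12, had at most 6 reads in any library. Among tested protein-coding genes, 11.7% (1679 of 14402) share exonic bases with another coding gene of the same strand, and 2 of the 5 members do.

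**Figure D4:**
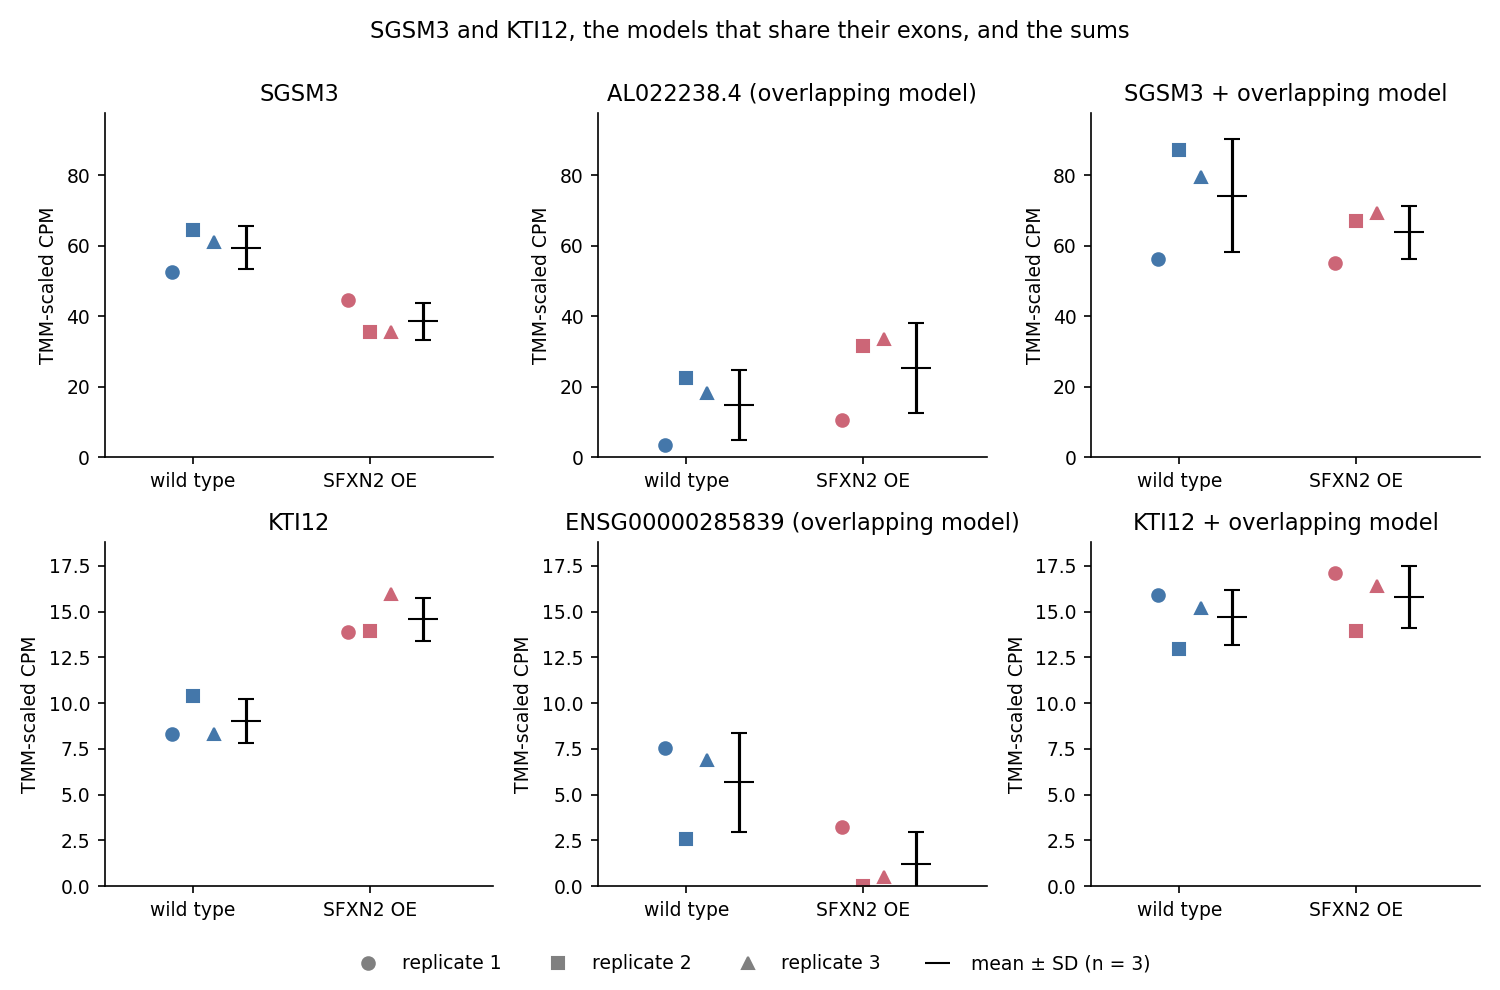
TMM-scaled CPM (linear axis from 0, mean ± SD, n = 3, bars cut at 0) of SGSM3 and KTI12, of the read-through model that shares their exons, and of the sum, by library. The groups are apart for each gene alone and overlap for the sums, at 55.2 to 87.1 CPM for SGSM3 and 13.0 to 17.1 CPM for KTI12.

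Genes that work with SGSM3 or KTI12 did not pass either, where 0.0106% of all tested genes passed in edgeR. With so few called, this says little of these genes in particular. An unadjusted edgeR p below 0.05 was found in 2.38% of all tested genes in each direction. All 15 genes of the SGSM family, RAB5 and its regulators and reported SGSM3 partners were tested, with 0 called in edgeR, DESeq2 or limma-voom, 1 at an unadjusted edgeR p below 0.05 and a median log2 fold change of -0.0053. That gene was SGSM2, of the same family, which averaged 68.7 ± 13.8 CPM in wild type and 52.3 ± 1.72 CPM with overexpression (SD, n = 3 each). Its groups overlapped, and its edgeR adjusted p was 0.93. SGSM1 averaged 3.03 ± 1.17 CPM in wild type and 3.31 ± 0.538 CPM with overexpression (SD, n = 3 each). RAB5A, a target of SGSM3, averaged 52.4 ± 1.47 CPM in wild type and 60.4 ± 4.54 CPM with overexpression (SD, n = 3 each), with an edgeR adjusted p of 0.93.

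Of 20 genes of the Elongator complex and of wobble uridine and diphthamide modification, all were tested and 0 were called in edgeR, DESeq2 or limma-voom, with 1 at an unadjusted edgeR p below 0.05 and a median log2 fold change of -0.015. DPH6, an enzyme of diphthamide synthesis, was that gene, with 6.17, 9.06 and 6.93 CPM in wild type and 4.84, 4.86 and 5.97 CPM with overexpression. Its groups did not overlap, and its edgeR adjusted p was 0.93. DPH3, an electron donor for both pathways, stood at 37.8 ± 3.76 and 43.5 ± 4.52 CPM, and ELP3, the catalytic subunit of Elongator, at 40.2 ± 0.661 and 36.6 ± 1.97 CPM (SD, n = 3 each). PSTK, a kinase related to KTI12 that acts on selenocysteine transfer RNA, averaged 6.19 ± 0.600 CPM in wild type and 7.44 ± 2.16 CPM with overexpression (SD, n = 3 each). Over all 6 lists, 6 of 68 tested genes (8.82%) had groups that did not overlap, beside 9.16% of all tested genes. They were RAB5A, which was higher with overexpression, and USP6NL of the RAB5 list, GATA2, ELP3, DPH6 and CLCN2, which were lower. An unadjusted edgeR p below 0.05 was found for 2 of the 68 (2.94%), beside 2.38% of all tested genes in each direction.

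Of 19 genes that overlap or flank the 5 members, 13 were tested and 0 passed in edgeR, with 0 at an unadjusted p below 0.05. DESeq2 and limma-voom called none of them. In edgeR 0.0106% of all tested genes passed, and 2.38% in each direction had an unadjusted p below 0.05. The lowest adjusted p of any of the 13 under an alternative setting was 0.28, for ENSG00000285839 (AL445685.3 in GENCODE) by edgeR without overexpression replicate 1. The 8 tested flanking genes had log2 fold changes from -0.16 to 0.64, the highest being MCHR1, a weakly counted receptor gene near SGSM3 that was at 0.30 without overexpression replicate 2. Those not yet named were TNRC6B beside SGSM3 (-0.16) and RAB3B and BTF3L4 beside KTI12 (-0.12 and 0.07). Among overlapping genes, AL022238.2 had no read and AC025263.3, inside BEST3, had 1 read in overexpression replicate 3.

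Genes most like each member over the 6 libraries were ranked by Pearson's r of log2 CPM among tested genes with a mean of at least 1 CPM. With 2 groups of 3 libraries, such an r mostly follows the group difference that chose the members, so it is a description with no p. For GPR50 they were FAM160B2 (r = 0.993), RNF215 (0.990) and the pseudogene AP000347.1 (0.989). For SGSM3 they were ADD2, a cytoskeletal adducin (0.997), NUP210, a nuclear pore protein (0.995), and the tetraspanin TSPAN15 (0.993). For CGA they were WAS (0.989), the autophagy protease ATG4C (0.988) and LINC00526 (0.987). For KTI12 they were the pseudogene AC245297.1 (0.996), the antisense gene AC005229.4 (0.986) and ZBTB8OS (0.983). For BEST3 they were TMEM217 (0.992), HERC4 (0.991) and the pseudogene RPS2P7 (0.985). The shifts of these 15 genes ranged from -0.59 (TSPAN15) to 1.05 (TMEM217) on the log2 scale, and each was smaller in size than that of its member.

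**Figure D5:**
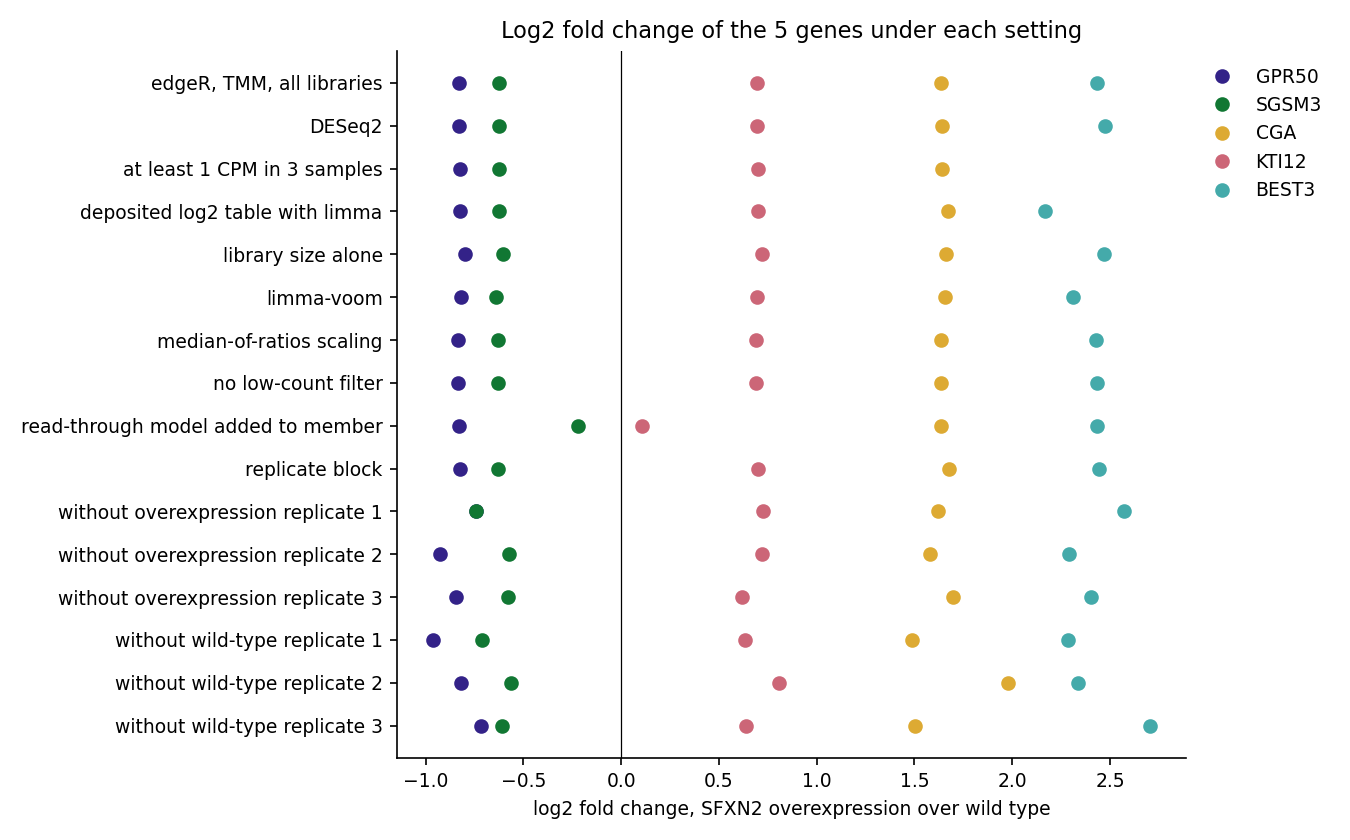
Log2 fold change of each member (points) under each setting named on the vertical axis. The points of a gene stay on one side of 0 throughout, and only the sum with the read-through model moves SGSM3 (to -0.22) and KTI12 (to 0.11) far from their other values.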

How the data were processed

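Per the labels' protocols, RNA of 6 HEK293 samples was freed of ribosomal RNA and built into libraries with a TruSeq v2 kit, a design that keeps no strand. Trim Galore 0.4.4 and hg38 are named in the submitters' processing notes, and the sources used here do not name the aligner, counter or annotation. The deposited files hold raw counts per gene and log2 values that match counts scaled by a constant per sample, plus 1, both made by the authors. Gene positions came from GENCODE 29 and promoters from RefSeq (GRCh38.p14). Counts were tested with edgeR 4.0.16 (filterByExpr with a minimum count of 10, TMM, robust quasi-likelihood F-test, threshold 0.05), with DESeq2 1.42.0 and limma 3.58.1 as alternatives, after a check on simulated data. Other scalings, filters, a replicate block and leaving out each library were also tried. The SE is the size of the log2 fold change over the square root of F. Intervals describe counting error alone, because they are computed from summed reads and leave out variation between libraries. The reads also lack molecular identifiers, which the intervals do not allow for.

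Every pair of replicates differed beyond sampling noise, with a chi-square over its degrees of freedom of at least 16.9. Same-numbered samples deviated together (correlations 0.24, 0.33 and 0.19), though no label states a pairing. The numbers were used as pairs only in the within-pair ratios and in the replicate block. The main edgeR fit, DESeq2 and limma-voom compared the groups without pairing. The 5 genes and all lists were chosen with earlier results of these data known. Genes named besides the 5 are SFXN2, every gene that overlaps or flanks a member, the 3 most alike genes per member, and in each list the 2 genes with the smallest p plus relatives of the member. GATA2, ELP3, USP6NL, the hormone genes and the single marker genes were named after their values were seen.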

Additional observations from a re-analysis of the deposited data

How the results depend on the processing

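The number of genes called was 2, and it was 12 with DESeq2, 1 with the replicate block and 1 to 3 when each library was left out. It was 1 without overexpression replicate 2 or wild-type replicate 3. The log2 fold changes of the 5 genes kept their sign under every setting run; BEST3 had no value under the filter of 1 CPM. Those of the models sharing exons ran from 0.30 to 1.20 for AL022238.4 and from -4.53 to -1.64 for ENSG00000285839 (AL445685.3) as each library was left out, and ENSG00000285839 was at -3.19 with the block. Leaving out a library gave -0.96 to -0.71 for GPR50, -0.74 to -0.56 for SGSM3, 1.48 to 1.98 for CGA, 0.62 to 0.81 for KTI12 and 2.29 to 2.71 for BEST3. Adding the read-through model, chosen after seeing the data, moved SGSM3 to -0.22 and KTI12 to 0.11. In the main edgeR fit AL022238.4 was at 0.77 and ENSG00000285839 at -2.25, each opposite in sign to its member. The median of the factors at the CGA promoter was -0.10, and it was -0.020 with limma-voom, -0.021 with the replicate block and -0.020 with limma on the deposited log2 table, the last chosen after seeing the data; the cause was not tested. The block changed no call on a gene named here. Depth limits BEST3 most, with 9 reads in wild type.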
